A study of Saccharomyces cerevisiae with 21 samples.

Results

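The genes described here encode chromatin remodelers and histone chaperones of *Saccharomyces cerevisiae* other than the core of the RSC complex. They are 44 genes listed by open reading frame, of the 7126 features quantified in nascent RNA, and were listed by the complex to which each protein belongs, a rule that uses no measured value. They comprise 7 accessory subunits of RSC, 8 subunits of SWI/SNF, 5 of INO80 and SWR1, 8 genes of the ISWI, CHD1 and FUN30 group, 5 encoding FACT and SPT factors, 6 encoding the HIR proteins, Asf1 and Rtt106, and 5 encoding CAF-1, Nap1 and Vps75. All 44 had the same name in the reference annotation, and all 44 passed the filter on low counts. The question addressed was whether transcription of the genes for other chromatin factors changes when RSC is lost.

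Nascent RNA was the RNA bound to RNA polymerase II (Pol II) purified through Rpb3-3xFLAG, a tag that all strains carried in the BY4741 background. The other genotypes carried the *OsTIR1* gene of rice under the *GPD1* promoter, together with Sth1, Rap1, or both proteins fused to V5 and the IAA7 auxin-inducible degron. The resulting RAP1-AID/STH1-AID, STH1-AID and RAP1-AID strains were treated in exponential growth with auxin (IAA) at 500 µM for 2 h, which leads to degradation of the tagged protein, or with the solvent DMSO. WT cells carried neither *OsTIR1* nor a degron and received no IAA, and DMSO was described for the degron strains only. There were thus 7 groups of 3 biological replicates. No WT cells with IAA were analysed, so an effect of IAA itself and an effect of depletion cannot be told apart. The library totals lay between 18289832 and 23182315 counts (median 20675890), and the correlation of log2 values between replicates was between 0.98 and 0.99. The lowest mean count of any of the 44 genes was 189 for *HTL1*, followed by 532 for *SPT4*, and the median over the 44 genes was 3410.

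RSC is the abundant and essential remodeler of the SWI/SNF family that slides and evicts nucleosomes at promoters, and Sth1 is its ATPase. SWI/SNF is its non-essential relative, and both contain Arp7, Arp9 and Rtt102. INO80 and SWR1 act at the nucleosomes that flank promoters, SWR1 by placing the histone variant H2A.Z there. The ISWI enzymes Isw1 and Isw2 and the related Chd1 space nucleosomes into arrays. Histone chaperones carry histones: FACT and Spt6 act with moving Pol II, CAF-1 and Asf1 in replication, and the HIR complex outside replication and at the histone genes. Rap1 is a sequence-specific general regulatory factor. It serves here as a comparison in which a different promoter protein was lost.

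The targeted gene *STH1* is not among the 44 genes, but the results turn on its loss. Its nascent RNA was 738 ± 36.4 CPM (counts scaled to the TMM-adjusted library total; SD, n = 3) in WT, 1150 ± 63.1 in STH1-AID DMSO and 2270 ± 172 in STH1-AID IAA. The degron removes the protein and not the RNA, so these values do not check the depletion. *STH1* RNA was already 0.64 ± 0.09 higher on the log2 scale in the STH1-AID control than in WT (SE, edgeR adjusted p = 2.88e-05) and rose by a further 0.98 ± 0.09 with IAA (adjusted p = 1.53e-08).

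On Sth1 depletion, 14 of the 44 genes rose and 18 fell (adjusted p below 0.05, edgeR's quasi-likelihood test of STH1-AID IAA against DMSO), and 12 did not pass the test. Among all 5742 protein-coding genes tested, 35.9% rose and 40.9% fell by the same rule, so the 31.8% and 40.9% of the 44 genes were close to the background. Their median log2 fold change was -0.06, and that of all genes was -0.06. Changes of more than 2-fold were found for *SNF11* and *SWR1* among the increases and for *MSI1*, *ISW1*, *ISW2* and *NAP1* among the decreases. By that rule 10.5% of all genes rose and 15.9% fell. Scaled to total library size, where the median of all genes moved from -0.06 to -0.31, 7 of the 44 genes rose and 23 fell, and 24.4% and 50.0% of all genes did.

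**Figure D1:**
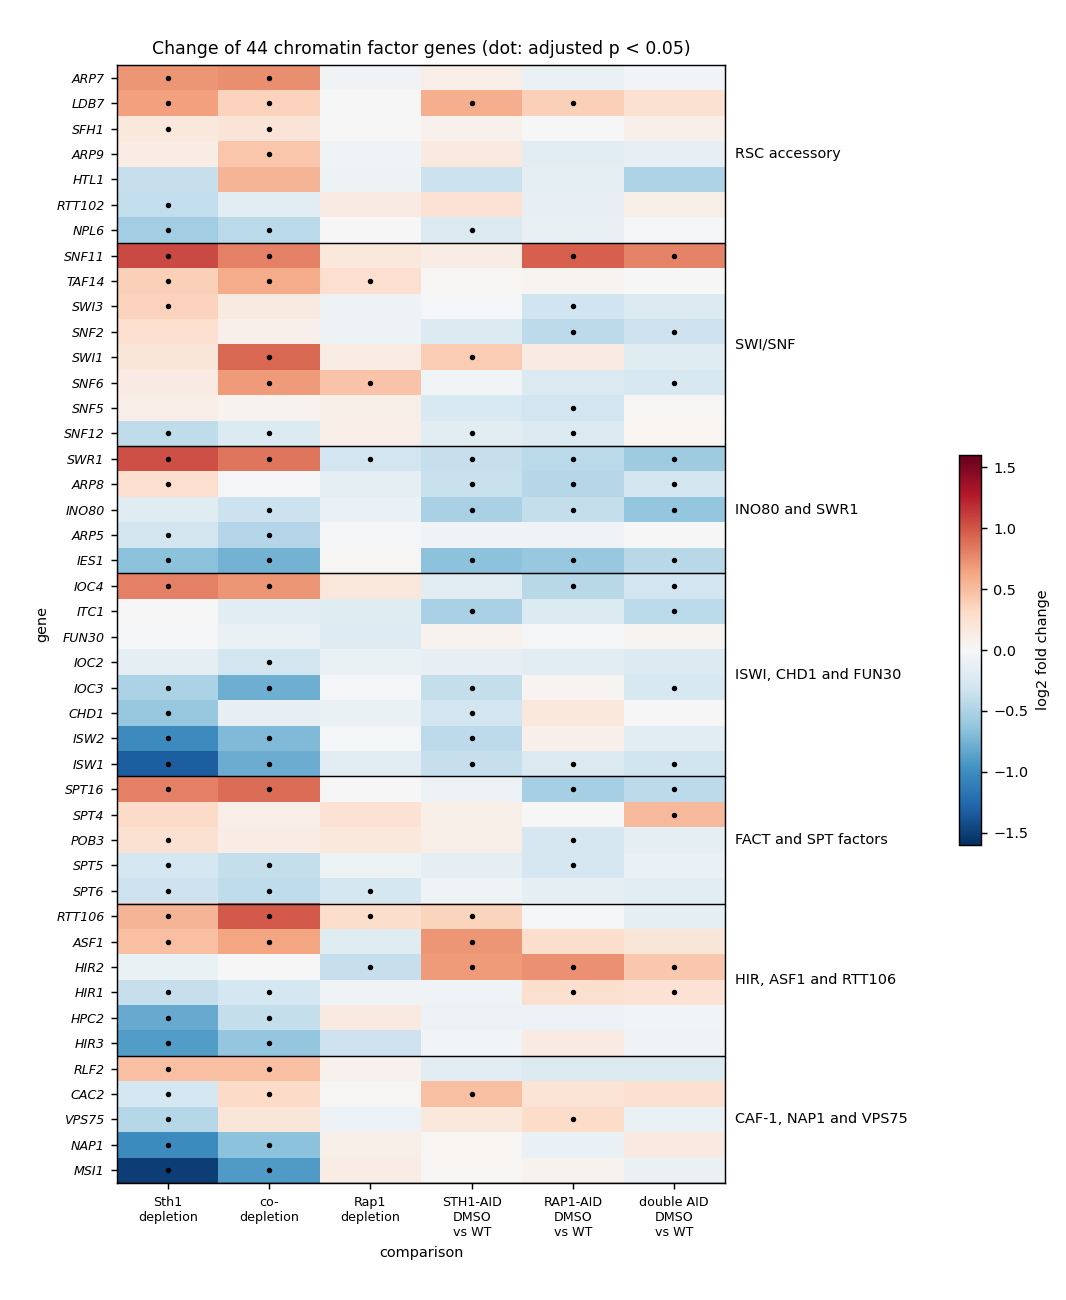
Heat map of the log2 fold change of the 44 genes (rows, grouped by complex and ordered by the change on Sth1 depletion) in 6 comparisons (columns), where red is higher, blue is lower, and a dot marks an adjusted p below 0.05. Within most groups of subunits, red and blue stand beside each other in the first column, from 1.06 for SNF11 to -1.51 for MSI1.

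The genes that changed most were spread over the complexes. *MSI1* (YBR195C), which encodes the Cac3 subunit of CAF-1, gave 113, 107 and 109 CPM in the STH1-AID DMSO libraries and 37.9, 39.5 and 38.1 CPM with IAA. The values with IAA were also below those of WT, which were 119, 104 and 101 CPM. The log2 fold change was -1.51 ± 0.08 (adjusted p = 2.08e-12). *ISW1* (YBR245C), an ISWI ATPase, gave 361, 335 and 382 CPM with DMSO and 146, 130 and 154 CPM with IAA. It was the second largest decrease of the 44, with a log2 fold change of -1.32 ± 0.08 (adjusted p = 3.32e-11). The STH1-AID control was already below WT for this gene (480, 449 and 459 CPM), by 0.36 on the log2 scale.

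*ISW2* (YOR304W), the ATPase of the other ISWI complex, gave 222, 222 and 254 CPM with DMSO and 116, 104 and 123 CPM with IAA, a log2 fold change of -1.02 ± 0.10 (adjusted p = 1.15e-08). *NAP1* (YKR048C), a chaperone of H2A and H2B, gave 449, 377 and 373 CPM with DMSO and 195, 188 and 210 CPM with IAA. Its log2 fold change was -1.01 ± 0.09 (adjusted p = 8.13e-09). *HIR3* (YJR140C), a subunit of the HIR complex, gave 133, 134 and 161 CPM with DMSO and 83.6, 71.9 and 75.9 CPM with IAA. Its log2 fold change was -0.89 ± 0.13 (adjusted p = 3.09e-06). In these 5 genes every IAA library lay below every DMSO library. They were chosen as the largest decreases, so this separation is not a separate result.

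Among the increases, *SNF11* (YDR073W), a small SWI/SNF subunit that binds Snf2, gave 14.1, 15.8 and 16.2 CPM with DMSO and 33.1, 33.8 and 29.3 CPM with IAA. Its log2 fold change was 1.06 ± 0.14 (adjusted p = 8.17e-07). *SWR1* (YDR334W), the ATPase that deposits H2A.Z, gave 618, 594 and 666 CPM with DMSO and 1240, 1150 and 1440 CPM with IAA, a log2 fold change of 1.03 ± 0.11 (adjusted p = 6.72e-08). The H2A.Z gene itself, *HTZ1*, rose by 0.91 ± 0.10. Other genes tied to H2A.Z did not all move together. *ARP6* of SWR1 and *CHZ1*, which encodes a chaperone of H2A.Z, fell. *SWC5* of SWR1 did not fall, with a mean of 55.1 TPM (a measure scaled to gene length) in STH1-AID DMSO and 62.8 TPM in STH1-AID IAA. They were picked from the context lists described below, in which both directions occurred. *SWR1* was lower than in WT in all 3 degron controls, by 0.37, 0.43 and 0.56 on the log2 scale in the STH1-AID strain, the RAP1-AID strain and the double-degron strain, and its level with Sth1 depleted was still 0.66 ± 0.11 above WT (790, 829 and 805 CPM).

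*IOC4* (YMR044W), a subunit of the Isw1b complex, gave 90.5, 96.5 and 90.9 CPM with DMSO and 155, 163 and 170 CPM with IAA, a log2 fold change of 0.81 ± 0.08 (adjusted p = 3.25e-08). *SPT16* (YGL207W), the large subunit of FACT, gave 454, 466 and 546 CPM with DMSO and 869, 833 and 867 CPM with IAA, a log2 fold change of 0.81 ± 0.10 (adjusted p = 4.61e-07). *ARP7* (YPR034W), the actin-related protein shared by RSC and SWI/SNF, gave 447, 413 and 416 CPM with DMSO and 679, 674 and 725 CPM with IAA. Its log2 fold change was 0.70 ± 0.08 (adjusted p = 1.75e-07). In these 5 genes every IAA library lay above every DMSO library. They were likewise chosen as the largest increases.

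**Figure D2:**
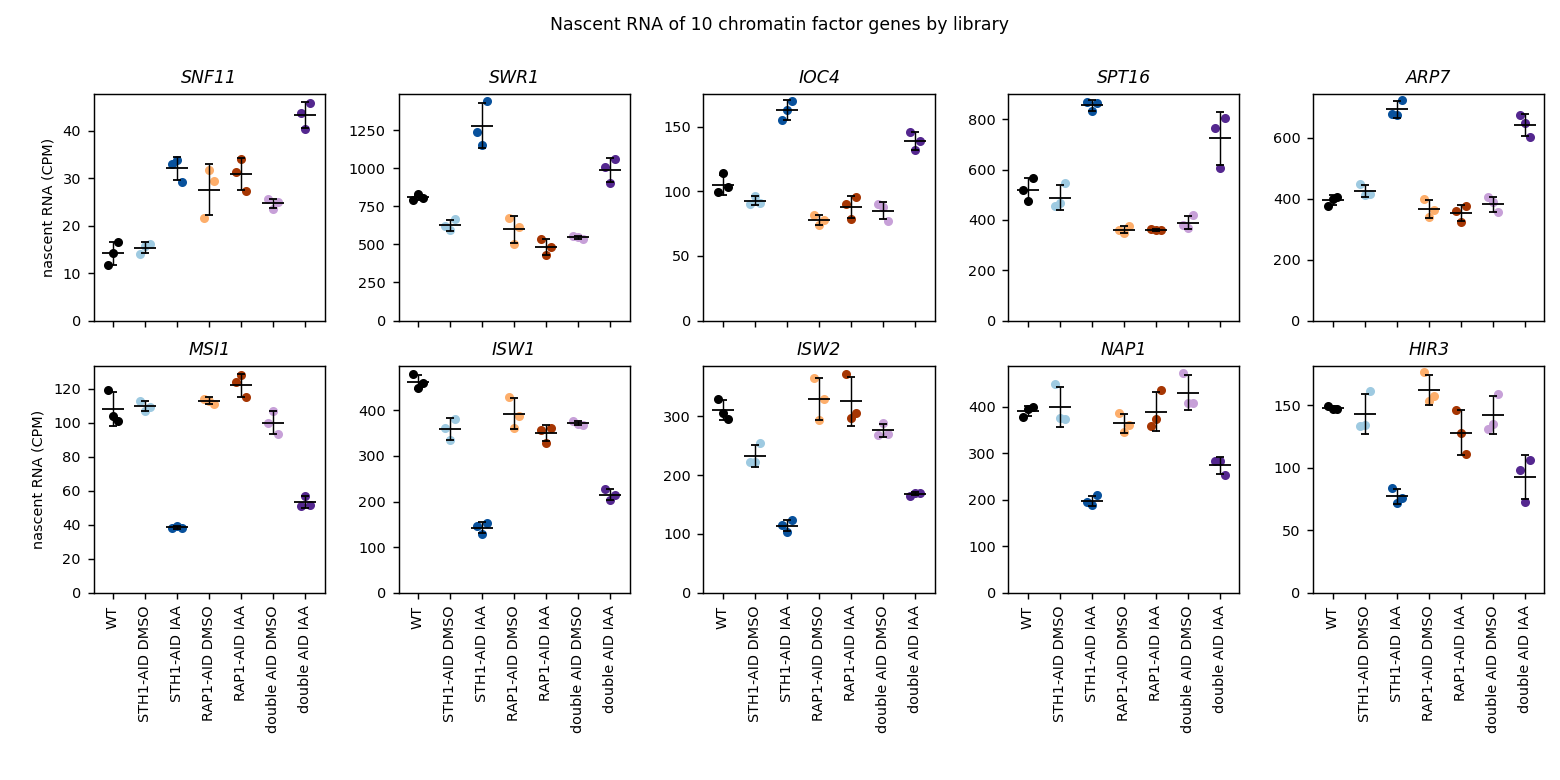
Nascent RNA in CPM (vertical axes, from 0) of the 5 genes with the largest increases (top row) and the 5 with the largest decreases (bottom row) on Sth1 depletion, in the 21 libraries by group, where points are libraries and bars show the mean ± SD of 3 replicates. MSI1 was 110 CPM in STH1-AID DMSO, 38.5 CPM in STH1-AID IAA and 53.3 CPM in RAP1-AID/STH1-AID IAA, and stayed near the WT level in RAP1-AID IAA.

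The sequence before the start codon was read for these 10 genes because RSC binds promoters, in part through Rsc3, whose motif has the core CGCG. A window of 300 bp upstream of the start codon was searched on both strands in the R64 genome. CGCG was found in 28.3% of the 5987 windows of protein-coding genes and in 22 of the 44 genes (50.0%). It was found in 10 of the 14 genes that rose and in 5 of the 18 that fell. The rest of the 22 were among the 12 genes that did not pass the test, so genes without a call held it too. These are counts without a test. Of all genes that rose and that fell, 27.8% and 28.7% held it. Among the 10 genes above, 6 held it. They are shown in the direction of transcription with the CGCG in capitals, first the genes that rose and then those that fell:

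ARP7, chrXVI:639367-639396, + strand: aaaaaatgatggcCGCGtttcgaagaaaat

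ARP7, chrXVI:639476-639505, + strand: ctattagcaaaagCGCGagaattactacat

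SWR1, chrIV:1135661-1135690, + strand: ttcggtggcgtttCGCGacaacttacgaga

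SPT16, chrVII:98755-98784, + strand: aatacccggaagtCGCGtgatctttttttt

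HIR3, chrX:695807-695836, - strand: tactatgtgccatCGCGaaattatttattg

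MSI1, chrII:611991-612020, - strand: gactttattgtgtCGCGaaaagtaaaaatt

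NAP1, chrXI:526743-526772, - strand: tttttgtattaccCGCGtaattgggaaaat

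The last base of the CGCG lay 124 bases before the start codon in *HIR3*, 122 in *MSI1* and 116 in *NAP1*, and 142 and 33 in *ARP7*, 255 in *SWR1* and 198 in *SPT16*. In *ARP7*, *SWR1* and *SPT16* the CGCG was accompanied by a run of A or T of 11, 12 and 11 bases, which is an A-track (7 or more A, AAAAAAA). An A-track was found in 52.6% of all windows and in 24 of the 44 genes. In *NAP1* the CGCG overlapped a match to the Reb1 motif CGGGTAA on the other strand. Reb1 matches were found in 7.92% of all windows and in 6 of the 44 genes. *SNF11*, which rose most, held a Reb1 match with its last base 215 bases before the start codon (chrIV:592207-592235, + strand), shown here in capitals: gattgttttgcCGGGTAAcaatcgacttt. Matches to the Abf1 consensus were found in 13% of all windows and in 14 of the 44 genes, *ISW2* and *SPT16* among them, while the Rap1 consensus was found in 0.15% of all windows. These windows can include transcribed leader sequence, and a match of these letters is not evidence of binding.

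Among the accessory RSC subunits, *ARP7*, *LDB7* and *SFH1* rose, *NPL6* and *RTT102* fell, and *ARP9* and *HTL1* did not pass the test (2 genes, log2 fold changes from -0.36 to 0.12). *LDB7*, which encodes the small subunit Rsc14, rose by 0.66 ± 0.11 on the log2 scale, from 117, 108 and 87.1 CPM to 169, 172 and 152 CPM. The STH1-AID control was itself above WT for *LDB7* (64.1, 77.1 and 66.5 CPM), by 0.59 on the log2 scale. *NPL6*, which encodes Rsc7, fell by 0.56 on the log2 scale (adjusted p = 3.23e-07), and *RTT102* fell by 0.39 (adjusted p = 0.0257). *HTL1*, the shortest of the 44 genes, ranged from 2.44 to 10.6 CPM among the STH1-AID IAA libraries. Among the 10 core RSC genes listed for context, *STH1*, *RSC1*, *RSC2* and *RSC4* rose, with log2 fold changes of 0.98, 0.74, 0.56 and 0.46. *RSC9* and *RSC30* fell by 0.33 and 0.40, and the other 4 core genes lay between -0.13 and 0.17.

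For SWI/SNF, *SNF11*, *TAF14* and *SWI3* rose, *SNF12* fell, and the remaining 4 genes, among them *SNF2*, did not pass the test. *SNF2* encodes the ATPase of SWI/SNF and is the counterpart of *STH1*. It gave 762, 743 and 832 CPM with DMSO and 860, 828 and 1120 CPM with IAA, so the groups overlapped at this depth, and its log2 fold change was 0.26 ± 0.12 (adjusted p = 0.0564). It passed the test in 4 of the other fits of the whole data set and in 2 of those that left out a library (STH1-AID IAA replicate 1 or 2), with adjusted p between 0.016 and 0.046. The 4 fits were those with DESeq2 size factors, the DESeq2 Wald test, the replicate block and a mean of at least 10 counts. With total library size *SNF2* did not pass. *SWI3*, the counterpart of *RSC8*, gave 393, 374 and 398 CPM with DMSO and 461, 467 and 580 CPM with IAA, a log2 fold change of 0.37 ± 0.10 (adjusted p = 0.00169). With total library size it was 0.12 and did not pass. *SNF5* (462, 434 and 417 CPM with DMSO and 461, 429 and 518 CPM with IAA) had a log2 fold change of 0.10 ± 0.12 (adjusted p = 0.455), and -0.15 with total library size.

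*SFH1*, the RSC counterpart of *SNF5*, rose from 102, 98 and 103 CPM to 109, 112 and 120 CPM, a log2 fold change of 0.17 ± 0.06 (adjusted p = 0.0105) that turned to -0.08 with total library size. *SNF12*, the counterpart of *RSC6*, fell from 88.8, 91.3 and 97.7 CPM to 69.5, 69.5 and 70.4 CPM, a log2 fold change of -0.41 ± 0.06 (adjusted p = 7.3e-06). *TAF14*, a YEATS-domain protein shared with INO80 and general transcription factors, rose by 0.38 ± 0.09. The ratio of 2 genes within a library does not depend on the scaling between libraries. The log2 ratio of *SNF2* to *STH1* in TPM, a measure scaled to gene length, was -0.91 ± 0.02 with DMSO and -1.63 ± 0.14 with IAA, without overlap of the libraries. The ratio of *SWI3* to *RSC8* moved from -0.44 ± 0.08 to 0.05 ± 0.18 without overlap of the libraries, and that of *SNF12* to *RSC6* from -2.04 ± 0.17 to -2.32 ± 0.02, also without overlap. The ratio of *SNF5* to *SFH1* was 0.90 ± 0.09 with DMSO and 0.83 ± 0.09 with IAA, and the libraries overlapped. Relative to the RSC counterpart, *SNF2* and *SNF12* were thus lower and *SWI3* was higher with IAA in the STH1-AID strain. In the RAP1-AID/STH1-AID strain the ratios of *SNF2* and *SNF12* were again lower without overlap. The ratio of *SWI3* to *RSC8* there was -0.54 ± 0.07 with DMSO and -0.34 ± 0.195 with IAA, and the libraries overlapped. The ratio of *SNF2* to *STH1* was -0.04 in WT, above that of STH1-AID DMSO, and *STH1* is the tagged gene, whose RNA rose with IAA.

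**Figure D3:**
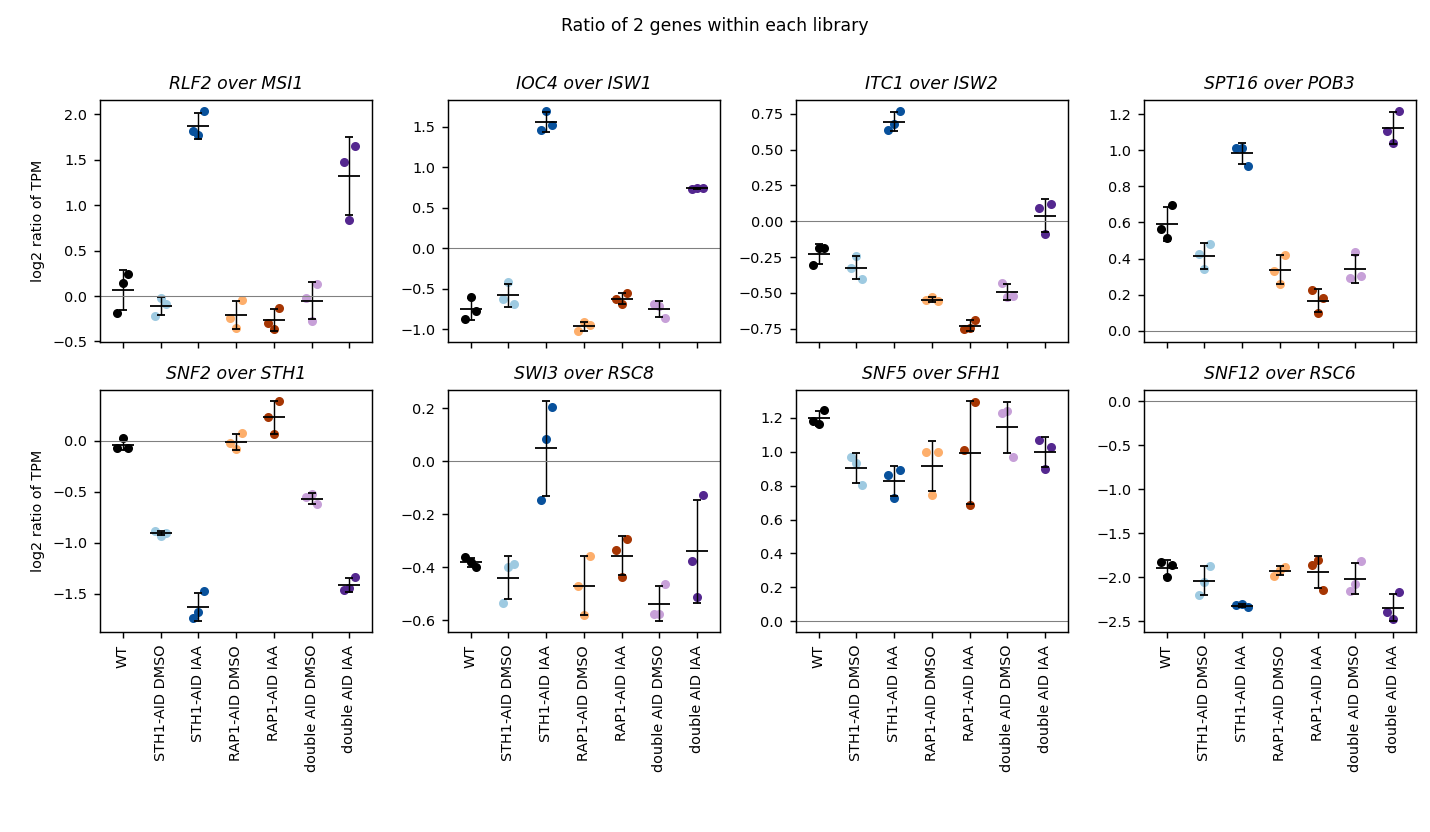
Log2 ratio of the TPM of 2 genes within each library (vertical axes), for 4 pairs of subunits of the same complex (top row) and 4 SWI/SNF genes over their RSC counterparts (bottom row), in the 21 libraries by group, where points are libraries and bars show the mean ± SD of 3 replicates. RLF2 over MSI1 stood at 1.88 in STH1-AID IAA against -0.11 in STH1-AID DMSO.

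Of the INO80 and SWR1 genes, *SWR1* and *ARP8* rose, *IES1* and *ARP5* fell, and *INO80* was -0.19 ± 0.12 (adjusted p = 0.15). *IES1*, an INO80 subunit, fell by 0.65 on the log2 scale (adjusted p = 2.93e-07), and *ARP5*, an actin-related protein of INO80, fell by 0.29. *ARP8* rose by 0.26 ± 0.09, with adjusted p = 0.0109 in all libraries and 0.0754 without STH1-AID IAA replicate 3, and was 0.009 with total library size. It was lower in the STH1-AID control than in WT, and Sth1-depleted cells did not pass the test against WT for *ARP8* (-0.10). *IES1* was also 0.66 lower in the STH1-AID control than in WT. These comparisons share the STH1-AID DMSO libraries. Of 21 further remodeler subunits listed for context, 6 rose and 13 fell (28.6% and 61.9%, against 35.9% and 40.9% of all genes). By more than 2-fold, 5 of the 21 fell and 1 rose, against 15.9% and 10.5% of all genes. Among the 5 were *DLS1* (-1.73 ± 0.12), a subunit of the Isw2 complex, *ARP6* (-1.65 ± 0.09), a subunit of SWR1, *IES4* (-1.52 ± 0.13) of INO80, and *ARP4* (-1.48 ± 0.07), which is shared by INO80, SWR1 and NuA4. The increase was that of *IES6* of INO80, by 1.19 ± 0.11.

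In the ISWI, CHD1 and FUN30 group, *ISW1*, *ISW2*, *CHD1* and *IOC3* fell and *IOC4* rose, while *FUN30*, *IOC2* and *ITC1* lay between -0.14 and 0.00. *CHD1*, the chromodomain ATPase, fell by 0.61 on the log2 scale (adjusted p = 4.42e-05), from 326, 277 and 314 CPM to 198, 179 and 224 CPM. *IOC3*, a subunit of the Isw1a complex, fell by 0.51. *IOC4* rose and *ISW1* fell, and their log2 ratio moved from -0.58 ± 0.14 to 1.56 ± 0.12. *ITC1*, the partner of Isw2, had a log2 fold change of 0.00 ± 0.10, and its ratio to *ISW2* moved from -0.33 ± 0.08 to 0.70 ± 0.07. These pairs were chosen after their values were seen.

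Among the chaperones that act with Pol II, *SPT16* and *POB3*, the subunits of FACT, both rose, while *SPT6* and *SPT5* fell and *SPT4* was 0.30 ± 0.14 (adjusted p = 0.0591). *POB3* rose by 0.25 ± 0.08 (adjusted p = 0.0106), from 170, 185 and 196 CPM to 216, 208 and 231 CPM. It lost the call without STH1-AID DMSO replicate 1 (adjusted p = 0.0591) or STH1-AID IAA replicate 3 (adjusted p = 0.0621), and was -0.01 with total library size. The log2 ratio of *SPT16* to *POB3* moved from 0.42 ± 0.07 to 0.98 ± 0.06. Of 9 other chaperones and their partners, listed for context, 5 rose and 4 fell (55.6% and 44.4%, against 35.9% and 40.9% of all genes). Among them *NHP6A* and *NHP6B*, paralogous genes whose HMG-box products assist FACT, rose by 1.45 ± 0.12 and 1.67 ± 0.19, and reads may have been divided between them with uncertainty. *SPT6*, which travels with Pol II, fell by 0.33. *SPT5*, the elongation factor that pairs with Spt4, fell by 0.28 with adjusted p = 0.0223, and between 0.0562 and 0.0751 without STH1-AID DMSO replicate 1 or STH1-AID IAA replicate 1 or 2.

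Among the chaperones of H3 and H4, *RTT106* rose by 0.55 ± 0.09 and *ASF1* by 0.48 ± 0.12, while the HIR subunits *HIR3*, *HPC2* and *HIR1* fell by 0.89, 0.81 and 0.37. The fourth subunit, *HIR2*, was -0.11 ± 0.11 (adjusted p = 0.373). Of CAF-1, *RLF2*, the large subunit Cac1, rose by 0.48 ± 0.12, *CAC2* fell by 0.29 and *MSI1* fell by 1.51. The log2 ratio of *RLF2* to *MSI1* moved from -0.11 ± 0.10 to 1.88 ± 0.14. *VPS75*, the partner of the Rtt109 acetyltransferase, fell by 0.46. *RTT109* itself, a context gene, fell by 0.96. The histone genes gave 7 decreases and 1 increase (*HTZ1*) among 9, from -1.37 ± 0.16 for *HHT1*, against 40.9% and 35.9% of all genes. On co-depletion they gave 0 decreases and 5 increases, against 37.5% and 32.2% of all genes. Their medians on Sth1 depletion and co-depletion were -0.55 and 0.37. The difference between co-depletion and Sth1 depletion passed the test for 7 of the 9, each more positive on co-depletion (77.8%, against 19.6% of all genes). Most of these are near-identical copies, so the split between copies is uncertain.

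Neighbouring genes were compared because divergent pairs share an upstream region. Of the 44 genes, 25 had the nearest upstream gene on the opposite strand. In 12 of them both the gene and its neighbour passed the test on Sth1 depletion, and in 9 of these 12 both moved in the same direction. Among all divergent genes where both passed, 77.6% did so. For tandem neighbours the counts were 3 of 10, against 50.6% of all such genes. *ISW1* lies 51 bp from *RRT2*, which fell by 1.18 on the log2 scale, and *HIR3* lies 209 bp from *IPA1*, which fell by 1.35. *RLF2*, which rose, lies 558 bp from *DSS4*, which fell by 2.27. These 3 genes were chosen after their values were seen. Counting used strand, and *VPS75* and *INO80* overlap a gene on the opposite strand.

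Rap1 depletion called few of the 44 genes. *SNF6*, *TAF14* and *RTT106* rose (3 of 44, against 12.8% of all genes) and *SWR1*, *SPT6* and *HIR2* fell (3 of 44, against 13.3%), so both shares (6.82%) were below the background. *SNF6* rose by 0.46 ± 0.10 (adjusted p = 0.00143), *RTT106* by 0.28 ± 0.09 and *TAF14* by 0.27 ± 0.09, and *HIR2*, *SWR1* and *SPT6* fell by 0.37, 0.31 and 0.28. The other 38 genes lay between -0.34 and 0.23, and the median of the 44 was -0.01. Only *SNF6* kept its call in every fit that left out a library. Without RAP1-AID DMSO replicate 1 or replicate 3 the counts were 1 higher and 0 lower. The lower count was 0 without RAP1-AID IAA replicate 3 and 1 without RAP1-AID IAA replicate 2. With total library size, where the median of all genes moved from 0.01 to 0.13, 9 rose and 0 fell, against 22.6% and 6.98% of all genes, and edgeR's test gave 0 lower at an unadjusted p below 0.05 as well. DESeq2's Wald test gave 4 lower. With the replicate number as a block, 3 rose and 5 fell (16.0% and 16.4% of all genes). The block is a shift per replicate number common to all 7 groups and does not pair libraries within a strain. The added decreases were those of *ISW1* (-0.17 ± 0.06, adjusted p = 0.0442 by edgeR) and *HIR3* (-0.33 ± 0.12, adjusted p = 0.0356).

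The responses to Sth1 and Rap1 depletion were compared directly. For 24 of the 44 genes the change differed (54.5%, against 68.9% of all genes), with 10 more positive and 14 more negative on Sth1 depletion (31.4% and 37.6% of all genes). With total library size the counts were 4 and 23, while the shares of all genes moved to 16.9% and 50.3%. *SWR1* differed by 1.33 ± 0.15, with 676, 503 and 615 CPM in RAP1-AID DMSO and 535, 432 and 485 CPM in RAP1-AID IAA, which overlapped. *MSI1* differed by -1.63 ± 0.10, with 114, 113 and 111 CPM in RAP1-AID DMSO and 124, 128 and 115 CPM in RAP1-AID IAA.

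The other genes with the largest changes on Sth1 depletion did not pass the test in the RAP1-AID strain without the block. *ISW1* gave 429, 361 and 388 CPM with DMSO and 358, 329 and 362 CPM with IAA, with a log2 fold change of -0.17 ± 0.08. *ISW2* gave 365, 293 and 329 CPM with DMSO and 372, 297 and 306 CPM with IAA, and *NAP1* gave 386, 346 and 362 CPM with DMSO and 359, 374 and 436 CPM with IAA. For these 3 genes the groups overlapped. *HIR3* gave 176, 153 and 157 CPM with DMSO and 146, 128 and 111 CPM with IAA, without overlap, and its log2 fold change was -0.34 ± 0.13 (adjusted p = 0.0526). *SNF11* gave 31.3, 34.1 and 27.3 CPM with IAA, within and above its range with DMSO.

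Among the other genes that rose on Sth1 depletion, *IOC4* gave 81.5, 74 and 77.9 CPM with DMSO and 90.1, 78.6 and 95.5 CPM with IAA in the RAP1-AID strain, *SPT16* gave 360, 347 and 377 CPM with DMSO and 365, 359 and 361 CPM with IAA, and *ARP7* gave 399, 340 and 363 CPM with DMSO and 360, 325 and 377 CPM with IAA. The groups overlapped for each of them, and their log2 fold changes lay between -0.05 and 0.18. For SWI/SNF, *SNF2* gave 740, 591 and 703 CPM with DMSO and 689, 530 and 698 CPM with IAA and *SWI3* gave 340, 287 and 328 CPM with DMSO and 312, 278 and 313 CPM with IAA. *SNF5* gave 433, 374 and 450 CPM with DMSO and 433, 362 and 546 CPM with IAA. The groups overlapped for these 3. *SNF12* gave 90.1, 83.9 and 94.7 CPM with DMSO and 94, 97.3 and 97.6 CPM with IAA, and *SFH1* gave 93.3, 96.4 and 97.5 CPM with DMSO and 93.2, 96.8 and 96.9 CPM with IAA, again with overlap. The log2 fold changes of these 5 genes lay between -0.09 and 0.11 and none passed the test.

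When both proteins were depleted, 15 of the 44 genes rose (32.2% of all genes did) and 16 fell (37.5% of all genes). The shares of 34.1% and 36.4% were again close to the background, and with total library size the counts were 10 and 21 (21.2% and 47.6% of all genes). Of the 14 genes that rose on Sth1 depletion 11 also rose here (78.6%, against 74.0% of all genes that rose), which is 73.3% of the co-depletion list, against 82.5%. Of the 18 that fell 14 also fell (77.8%, against 75.8%), which is 87.5% of the co-depletion list, against 82.7%. The overlap of the lists was thus close to that of all genes. The STH1-AID and RAP1-AID/STH1-AID comparisons use separate libraries. *SPT16* (381, 368 and 418 CPM with DMSO and 766, 606 and 804 CPM with IAA), *ARP7* (404, 388 and 355 CPM, then 674, 647 and 604 CPM) and *SWR1* (553, 549 and 538 CPM, then 1010, 903 and 1060 CPM) rose by 0.90 ± 0.10, 0.75 ± 0.08 and 0.86 ± 0.11. *MSI1* (100, 107 and 93.4 CPM, then 51.2, 57.1 and 51.5 CPM) fell by 0.91, and *ISW1* (377, 371 and 367 CPM, then 227, 204 and 214 CPM) by 0.79.

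In the same libraries *ISW2* gave 268, 289 and 270 CPM with DMSO and 165, 170 and 170 CPM with IAA (log2 fold change -0.71 ± 0.10), *NAP1* gave 474, 409 and 409 CPM with DMSO and 284, 283 and 254 CPM with IAA (-0.66 ± 0.09) and *HIR3* gave 131, 135 and 159 CPM with DMSO and 98.4, 72.6 and 106 CPM with IAA (-0.62 ± 0.13). *IOC4* gave 90.4, 87.5 and 77.3 CPM with DMSO and 146, 132 and 139 CPM with IAA (0.71 ± 0.08), and *SNF11* rose to 43.8, 40.5 and 45.9 CPM (0.81 ± 0.13). Each of these 5 passed the test, without overlap of the libraries. *SNF12* gave 106, 106 and 108 CPM with DMSO and 90, 91.3 and 93.3 CPM with IAA (-0.22 ± 0.06) and *SFH1* gave 105, 98.5 and 101 CPM with DMSO and 118, 119 and 116 CPM with IAA (0.21 ± 0.06), and both passed the test, *SFH1* not with total library size. *SNF2* gave 735, 737 and 702 CPM with DMSO and 787, 686 and 831 CPM with IAA (0.08 ± 0.12), *SWI3* gave 348, 315 and 363 CPM with DMSO and 390, 337 and 408 CPM with IAA (0.15 ± 0.10), and *SNF5* gave 569, 539 and 464 CPM with DMSO and 574, 513 and 547 CPM with IAA (0.06 ± 0.12). These 3 did not pass and their libraries overlapped, and with total library size their values were -0.13, -0.07 and -0.15.

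Of the 44 genes, 10 differed between co-depletion and Sth1 depletion (22.7%, against 30.0% of all genes), each with a more positive value on co-depletion. Over all genes 19.6% were more positive and 10.5% more negative, with a median difference of 0.08. With the replicate number as a block 2 genes were also more negative, *ARP8* (-0.30 ± 0.09, adjusted p = 0.0164 by edgeR) and *IOC3* (-0.28 ± 0.10, adjusted p = 0.0462). For *MSI1*, *ISW1*, *NAP1* and *HPC2* the decrease was smaller by 0.60 ± 0.11, 0.54 ± 0.11, 0.36 ± 0.13 and 0.42 ± 0.13. *CAC2* fell on Sth1 depletion (110, 98.7 and 98.8 CPM, then 80.4, 81 and 90.6 CPM) and rose on co-depletion (95.8, 74 and 92.4 CPM, then 115, 94 and 117 CPM), where the libraries overlapped. Its difference was 0.60 ± 0.14 (adjusted p = 0.00338 by edgeR). The call of the increase was lost with total library size (0.10, adjusted p = 0.379), with only the libraries compared (adjusted p = 0.0541) and without RAP1-AID/STH1-AID DMSO replicate 2 (adjusted p = 0.0732). That of the decrease was lost without STH1-AID DMSO replicate 1 (adjusted p = 0.0521). The STH1-AID control was already above WT for *CAC2*, by 0.48 on the log2 scale. Sth1-depleted cells did not pass the test against WT for this gene (0.20). *SWI1*, the SWI/SNF subunit bound by activators, was 0.19 ± 0.13 on Sth1 depletion (197, 227 and 234 CPM, then 243, 280 and 227 CPM) and rose by 0.92 ± 0.13 on co-depletion (133, 179 and 119 CPM, then 256, 252 and 307 CPM). *CHD1*, *VPS75*, *SNF6* and *RTT106* were the others.

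**Figure D4:**
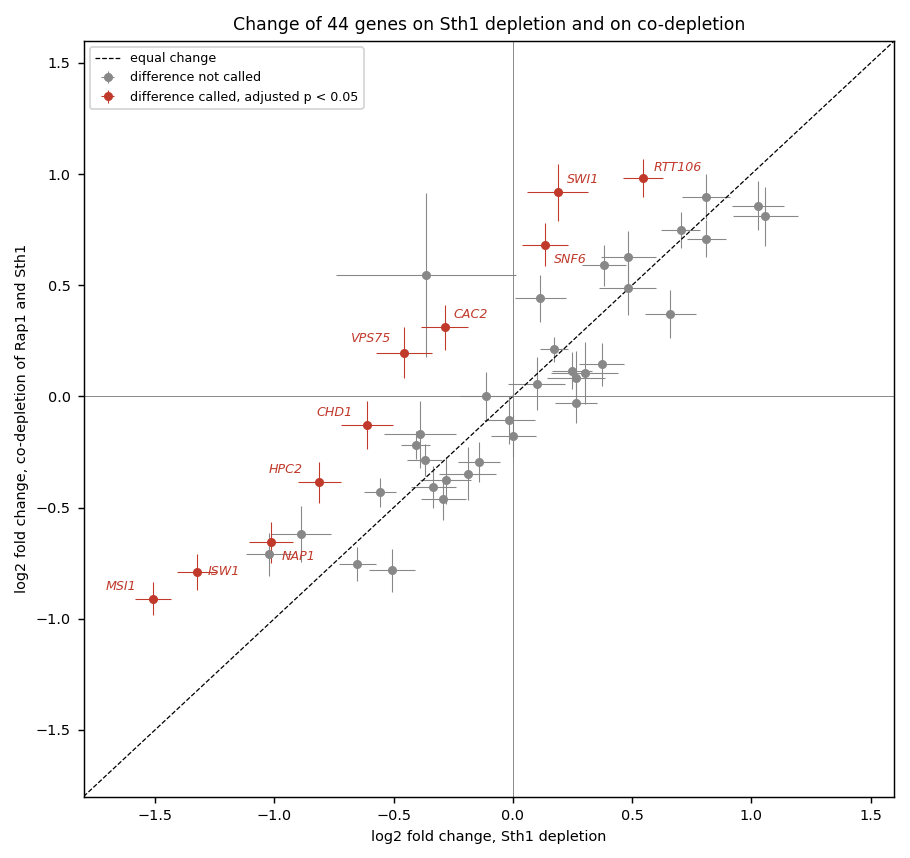
Log2 fold change on Sth1 depletion (horizontal axis) against that on co-depletion of Rap1 and Sth1 (vertical axis) for the 44 genes, with SE bars and a dashed line of equal change. The 10 genes in red, whose difference passed the test, all lie above the line, CAC2 with -0.29 and 0.31.

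For co-depletion against the sum of both single depletions, 7 genes differed, 15.9% of the 44 against 26.8% of all genes. They were *SWI1*, *ISW1*, *CHD1*, *HIR3*, *CAC2*, *MSI1* and *VPS75*, with differences between 0.48 and 0.74. Without RAP1-AID DMSO replicate 1 the count was 4, and with total library size it was 3. The 7 values were positive. Over all genes 17.7% were positive and 9.04% negative by the same test, with a median of 0.10, and with total library size the shares were 11.4% and 9.89%.

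The degron strains differed from WT before IAA was added. In the STH1-AID control 17 of the 44 genes differed from WT (38.6%, against 37.9% of all genes), in the RAP1-AID control 18 (40.9%, against 44.7%) and in the double-degron control 15 (34.1%, against 33.3%). The same 6 genes were called in the same direction in all 3, *ARP8*, *IES1*, *INO80*, *ISW1* and *SWR1* lower and *HIR2* higher, which is 13.6% of the 44 genes against 15.0% of all genes. All 3 comparisons share the WT libraries. The degron strains also received DMSO, which was not described for WT, so a degron, OsTIR1 and DMSO cannot be told apart. Of the calls in the RAP1-AID control, 5 were higher and 13 lower (22.7% and 22.1% of all genes), and with total library size 12 and 5 (36.0% and 11%). *SNF11*, which rose on Sth1 depletion, had 11.8, 14.2 and 16.6 CPM in WT, 21.6, 31.7 and 29.5 CPM in RAP1-AID DMSO and 25.6, 23.6 and 25 CPM in RAP1-AID/STH1-AID DMSO. Between WT and Sth1-depleted cells 36 of the 44 genes differed (81.8%, against 78.7% of all genes). *ISW1* was 1.69 lower and *LDB7* 1.25 higher than in WT on the log2 scale.

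In WT, per gene length, the levels ran from 335 ± 29.5 TPM for *SPT5* to 17.2 ± 0.73 TPM for *HIR2*, with a median of 99.5 over the 44 genes and 58.7 over all protein-coding genes tested. *NAP1* (314 ± 23.2 TPM) and *SPT5* were within their spread of each other, and *ARP7* (270 ± 23.9) came next. The ATPase genes *SWR1* (156 ± 12.2) and *SNF2* (155 ± 5.38) did not differ beyond their spread. *ISW1* (121 ± 3.45) and *INO80* (121 ± 12) did not either, and they were above *ISW2* (82.0 ± 1.31) and *CHD1* (75.4 ± 3.21). The HIR genes were below both medians, with *HPC2*, *HIR1*, *HIR3* and *HIR2* at 51.6, 37.8, 26.0 and 17.2 TPM.

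For the genes followed in every library, the WT values not given above were 329, 305 and 295 CPM for *ISW2*, 379, 396 and 400 CPM for *NAP1*, 149, 147 and 147 CPM for *HIR3*, 99.2, 114 and 103 CPM for *IOC4*, 521, 475 and 568 CPM for *SPT16* and 377, 400 and 407 CPM for *ARP7*. For SWI/SNF they were 939, 908 and 881 CPM for *SNF2*, 397, 393 and 403 CPM for *SWI3*, 536, 487 and 529 CPM for *SNF5* and 110, 99 and 105 CPM for *SNF12*, and *SFH1* gave 100, 93.7 and 95.4 CPM. *ISW2*, *NAP1*, *HIR3* and *SNF12* were lower in every Sth1-depleted library than in any WT library, and *IOC4*, *SPT16*, *ARP7*, *SWI3* and *SFH1* were higher. Of these, *ISW2*, *NAP1*, *HIR3*, *IOC4*, *SPT16* and *ARP7* had been chosen by their change on Sth1 depletion. Separation from WT in either direction was common, as it held for 36 of the 44 genes. The share of all genes without overlap was not taken, but 78.7% of them passed the test against WT.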

How the data were processed

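Nascent RNA-seq was analysed in 21 libraries of 7 groups. Per the authors' methods, reads were trimmed with cutadapt 1.9.1 and quantified with strand by RSEM 1.3.0 and STAR 2.5.2a on the R64 genome; the deposited expected counts and TPM were used as they stand, and no count column was left unused. TPM, which the authors scaled to gene length and library total, was used for levels and ratios only. Expected counts were rounded, features were kept with edgeR's filterByExpr by group, and edgeR 4.0.16 (R 4.3.3) was fitted with TMM scaling and 1 coefficient per group over all libraries (14 residual degrees of freedom). Contrasts were tested with the quasi-likelihood test, and Benjamini-Hochberg adjusted over the 5742 protein-coding genes kept. "Rose" and "fell" mean an adjusted p below 0.05. Errors are the SE of log2 fold changes or the SD over 3 replicates. The scaling is relative, since no external standard was used for these libraries. Although the rule for the 44 genes uses no measured value, the 44 genes and the context lists (core RSC, further remodeler subunits, other chaperones and partners, and histone genes) were drawn up with earlier results of these data known.

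All 44 genes are accounted for. Values in every library were given for genes called with more than 2-fold change in a depletion, for the 5 largest increases and decreases on Sth1 depletion, and for SWI/SNF genes with an RSC counterpart and *SFH1*. Values in the compared libraries of *LDB7*, *CHD1*, *POB3*, *CAC2* and *SWI1* were added after they were seen. Alternatives were DESeq2 1.42.0 (size factors and the Wald test), total library size, the replicate number as a block common to all groups, a mean of at least 10 counts, no filter, all features, only the libraries compared, an adjusted p of at most 0.01, and leaving out each library. Same-numbered RAP1-AID libraries deviated together, with correlations from 0.20 to 0.47, while 1 pair of each of the other strains was below 0.1. These correlations were taken within strains. Promoter windows came from the RefSeq R64 genome. P-values measure the spread between the labelled biological replicates.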

Additional observations from a re-analysis of the deposited data

Results flagged for a closer look

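The following differences between strains passed edgeR's test of the difference itself (adjusted p below 0.05 over all protein-coding genes). Values are differences of log2 fold changes. Co-depletion minus Sth1 depletion gave 0.73 for *SWI1*, 0.55 for *SNF6*, 0.54 for *ISW1*, 0.48 for *CHD1*, 0.42 for *HPC2*, 0.44 for *RTT106*, 0.60 for *CAC2*, 0.60 for *MSI1*, 0.36 for *NAP1* and 0.65 for *VPS75*. Over all genes 19.6% were positive and 10.5% negative. *CAC2* had opposite directions in the 2 strains, and its increase on co-depletion did not pass with total library size (adjusted p = 0.379) or with only the libraries compared (adjusted p = 0.0541). For *CAC2* the STH1-AID control was above WT by 0.48, and Sth1-depleted cells did not pass the test against WT (0.20).

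Co-depletion minus the sum of the single depletions gave 0.62 for *SWI1*, 0.70 for *ISW1*, 0.59 for *CHD1*, 0.61 for *HIR3*, 0.58 for *CAC2*, 0.48 for *MSI1* and 0.74 for *VPS75*.

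Sth1 depletion minus Rap1 depletion, for those of the 15 genes given in every library that passed, was positive for *SWR1* (1.33), *SNF11* (0.89), *SPT16* (0.81), *ARP7* (0.76), *IOC4* (0.63) and *SWI3* (0.45). It was negative for *MSI1* (-1.63), *ISW1* (-1.16), *NAP1* (-1.11), *ISW2* (-1.01), *HIR3* (-0.55) and *SNF12* (-0.51). These 3 sets of differences share libraries. Groups of 3 were not examined for single outlying libraries.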

How the results depend on the processing

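Counts of genes called were compared over 13 comparisons and directions, and 198 of the alternative values lay within 1.5 times the reported count while 14 did not. With total library size, the genes higher on Sth1 depletion were 7, those higher and lower on Rap1 depletion were 9 and 0, and those called against the sum of the single depletions were 3. At an adjusted p of at most 0.01, Rap1 depletion gave 1 higher and 0 lower. With the replicate number as a block, Rap1 depletion gave 5 lower. Leaving out single libraries gave 1 to 3 higher and 0 to 4 lower on Rap1 depletion, 12 to 16 higher and 16 to 18 lower on Sth1 depletion, and 4 to 8 against the sum.

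Signs turned for *SFH1* (-0.08), *SNF5* (-0.15) and *POB3* (-0.008) on Sth1 depletion and for *SNF2* (-0.13), *SWI3* (-0.066) and *SNF5* (-0.15) on co-depletion with total library size, and for *SNF5* on co-depletion without RAP1-AID/STH1-AID DMSO replicate 3, where the values without 1 library ran from -0.026 to 0.132. With total library size *SWI3*, *TAF14*, *ARP8*, *ASF1* and *RLF2* also lost their calls on Sth1 depletion, and *SPT5* did so with DESeq2 size factors. On co-depletion *SFH1*, *LDB7*, *ARP9*, *RLF2* and *CAC2* lost theirs with total library size, and *IOC2* and *CAC2* with only the libraries compared. On Rap1 depletion *SWR1*, *SPT6* and *HIR2* lost theirs with total library size, and *TAF14*, *SWR1* and *SPT6* with only the libraries compared. Leaving out a library ended the call in at least 1 fit for 6 genes on Sth1 depletion (*ARP8*, *CAC2*, *POB3*, *RTT102*, *SFH1* and *SPT5*), 5 on Rap1 depletion and 2 on co-depletion (*CAC2* and *INO80*). The cause was not tested.

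Deviations of same-numbered IAA and DMSO libraries correlated above 0.1 in 7 of 9 pairs, in all 3 of RAP1-AID (0.20 to 0.47) and in 2 of 3 of STH1-AID (0.09 to 0.35) and of RAP1-AID/STH1-AID (0.06 to 0.47). Every DMSO library (9 of 9) and 8 of 9 IAA libraries correlated best with their own number, which is a hint from the data and not the design. With that block, 2 genes were more negative on co-depletion than on Sth1 depletion, against 0 without it. On Sth1 depletion 16 genes rose and 18 fell with the block, and 37.1% and 41.6% of all genes did. In the RAP1-AID control 22 genes differed from WT, while 24.1% of all genes were higher and 25.2% lower. In the double-degron control 20 genes differed from WT, while 18.3% of all genes were higher and 19.7% lower. Each of these shares of all genes was larger than without the block. Changes near the SE of a gene, as for *HTL1*, were not detectable at this depth.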
